A study of Mus musculus with 8 samples.

Results

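Potassium channel genes were followed in sorted mouse skin cells, labelled as melanoblasts or melanocyte stem cells, of 2 ages and 2 genotypes. The members are all genes whose annotated symbol begins with Kcn, 1 or more further letters and a number. This gave 89 of the 22180 genes measured by rows with a single symbol, and where a gene had several rows the one with the highest mean was kept. The family was chosen by the log2 values of Kcnk1, which had been seen to be much higher at 21 days than at 4 days in wild-type cells. The members' age values are therefore given as a description: calls are counted only to be set beside those of all genes, and no p-value by age is given for a member. Of the 89 members, 87 encode proteins and the other two, Kcnd3os and Kcnq1ot1, are non-coding RNAs named after the channel genes they overlap.

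Potassium channels let potassium ions cross the membrane and so hold or restore its resting voltage. Tandem-pore channels carry the background leak, voltage-gated channels open when the membrane depolarises, inward rectifiers pass current mainly near rest, and other channels open with intracellular calcium or sodium. Auxiliary subunits change the gating or trafficking of the pore-forming subunits. In melanocytes membrane voltage is tied to ion transport and signalling, and in Schwann cells, glia that share the neural crest origin of melanocytes, voltage-gated and inwardly rectifying channels are well known.

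All cells were sorted from dissociated mouse skin as positive for green fluorescent protein and negative for p75. All mice carried Tyr::Cre, a recombinase under a tyrosinase promoter, and Z/EG, a reporter that makes the fluorescent protein after recombination. P4_WT is 2 arrays of melanoblasts, the precursors of melanocytes, from B-raf +/+; C-raf +/+ mice of 4 days. P21_WT is 2 arrays of melanocyte stem cells from B-raf +/+; C-raf +/+ mice of 21 days. P21_KO is 4 arrays of melanocyte stem cells from mice of 21 days with the genotypes B-raf fl/fl and C-raf fl/fl, in which Cre can delete both kinase genes in the cells where it is active. The background was mixed, with the floxed alleles brought in from 129/Sv and the transgenes from C57Bl/6, so genotype and inherited strain segments cannot be told apart. Age and labelled cell stage change together between P4_WT and both P21 groups, so they cannot be told apart. Differences by age below are thus also differences between these stages. All arrays are labelled biological replicates, and each wild-type array is stated to be another animal. One label number, of unstated meaning, is common to replicates 2, 3 and 4 of P21_KO, so p-values measure the spread between these arrays and may be too small.

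The values are log2 signals, and their median over all rows and arrays was 3.23. Arrays of one group correlated at 0.954 to 0.974 over all genes, and arrays of different groups at 0.91 to 0.977. Braf, a target of the deletion, read 5.99 and 7.20 in P21_WT and 5.66 to 6.57 in P21_KO, so the array did not show its loss. Its probes may lie outside the deleted part, and no value was available for the C-raf gene. All 12 melanocyte markers, Tyr, Dct, Pmel and Mitf among them, had group means above 3.23 in all 3 groups. Their mean was 9.20 to 9.35 in P4_WT, 7.79 to 7.86 in P21_WT and 6.09 to 7.48 in P21_KO. All 7 measured Schwann cell markers were also above 3.23 in every group, with a list mean of 7.14 to 7.32 in P4_WT, 8.64 to 8.66 in P21_WT and 8.70 to 8.90 in P21_KO. P4_WT replicate 2 stood apart in its mast cell markers (5.52 against 2.08 to 2.46 on the other 7 arrays), its endothelial markers (5.91 against 3.26 to 3.69) and its immune cell markers (5.71 against 3.06 to 3.55). P4_WT replicate 1 stood apart in its hair shaft and inner root sheath markers (6.94, against 4.72 in replicate 2 and 2.81 to 2.95 on the P21 arrays). It also stood apart in its pericyte and smooth muscle markers (5.60 against 4.17 to 4.89 on the other 7 arrays). P21_WT replicate 1 stood apart in its skeletal muscle markers (4.02 against 2.85 to 3.27 on the other 7 arrays).

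**Figure D1:**
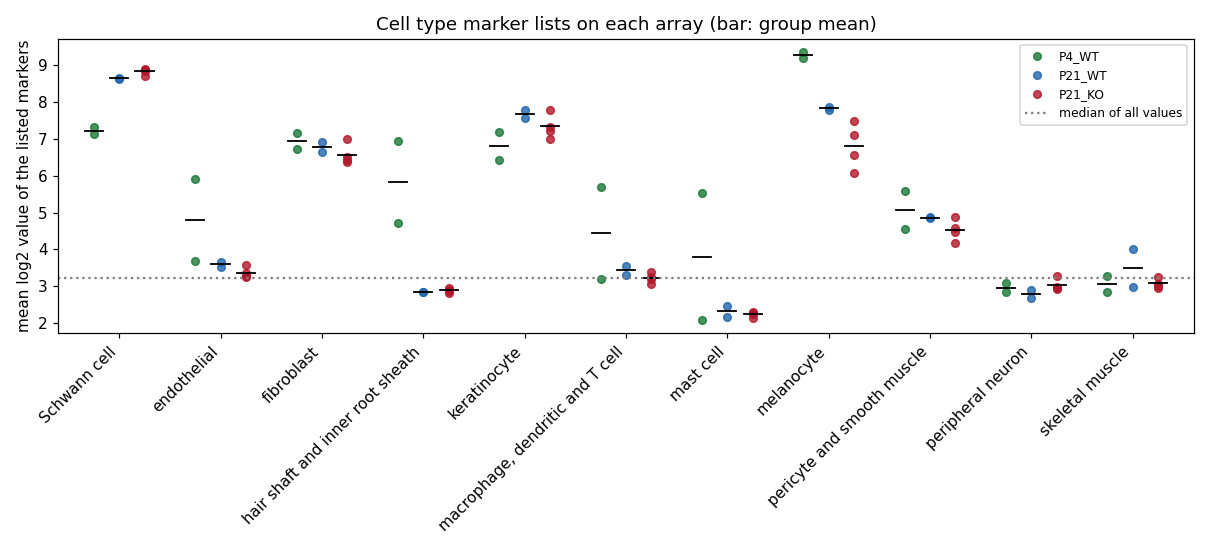
Mean log2 value of each cell type marker list (vertical axis) on each array, by group. Points are arrays, bars are group means and the dotted line is the median of all values, 3.23. The Schwann cell list is higher on all 6 P21 arrays than on both P4_WT arrays, and the melanocyte list is lower.

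Upstream windows are shown for the members on which the results turn: Kcnk1 and Kcna2, which were higher at 21 days in both genotypes, and Kcnn4, whose P21_WT values lay above those of both other groups. Kcna1 has no entry in the RefSeq promoter table used here, which held 69 of the 89 members. Each window is the 250 bases before an annotated RefSeq start on build GRCm38.p6, on the plus strand, with CG dinucleotides in capitals. For all 3 genes the annotated gene span begins upstream of the window, so another start exists.
Kcnk1, chr8:125994852-125995101: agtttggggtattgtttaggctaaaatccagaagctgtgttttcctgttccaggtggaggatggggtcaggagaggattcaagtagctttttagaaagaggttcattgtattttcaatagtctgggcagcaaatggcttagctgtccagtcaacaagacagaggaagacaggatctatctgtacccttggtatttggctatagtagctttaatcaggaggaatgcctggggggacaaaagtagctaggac
Kcna2, chr3:107101317-107101566: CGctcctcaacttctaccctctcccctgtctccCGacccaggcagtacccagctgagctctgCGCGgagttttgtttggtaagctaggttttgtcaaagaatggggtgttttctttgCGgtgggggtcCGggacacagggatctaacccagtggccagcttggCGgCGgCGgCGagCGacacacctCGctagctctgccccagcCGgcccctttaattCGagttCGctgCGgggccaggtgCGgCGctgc
Kcnn4, chr7:24370013-24370262: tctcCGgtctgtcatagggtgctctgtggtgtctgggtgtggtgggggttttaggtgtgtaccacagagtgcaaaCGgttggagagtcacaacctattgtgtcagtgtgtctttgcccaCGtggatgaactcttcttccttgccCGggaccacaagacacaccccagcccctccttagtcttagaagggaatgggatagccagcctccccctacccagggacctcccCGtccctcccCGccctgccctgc

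The Kcnk1 window held 0 CG dinucleotides, as did 7.87% of all 32851 windows of that length, and the Kcna2 window held 18, a count reached by 21.7% of windows. Kcnn4 held 6, the median of all windows. The windows were searched on both strands for CACGTG and CATGTG, forms of the E-box that MITF can bind, and for ACAAAG, a core that SOX factors can bind. CACGTG occurred once, in Kcnn4, and in 6.02% of all windows. CATGTG (12.3% of windows) and ACAAAG (16.5%) were not in any of these 3 windows. With 1 match in all, no matches overlapped. A match is only a match of letters.

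Most of the family read low in these cells. Of the 89 members, 30 (33.7%) had a group mean at or above 3.23 in at least 1 group, against 58.2% of all genes. The remaining 59 members were below it in all 3 groups, and 43 of these were below it on every one of the 8 arrays. Signals at that level may lie near background, where differences on this scale are compressed. Among the 59 dim members differences by age ran from -0.59 to 0.48, and 37 of them were above 0 (62.7%, against 57.2% of all 9281 equally dim genes). Among the 30 brighter members 24 were higher in P21_WT (80.0%, against 45.3% of all brighter genes), with a range of -1.27 to 3.66. A member could enter the brighter set through its higher group alone, so these shares describe the set only.

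**Figure D2:**
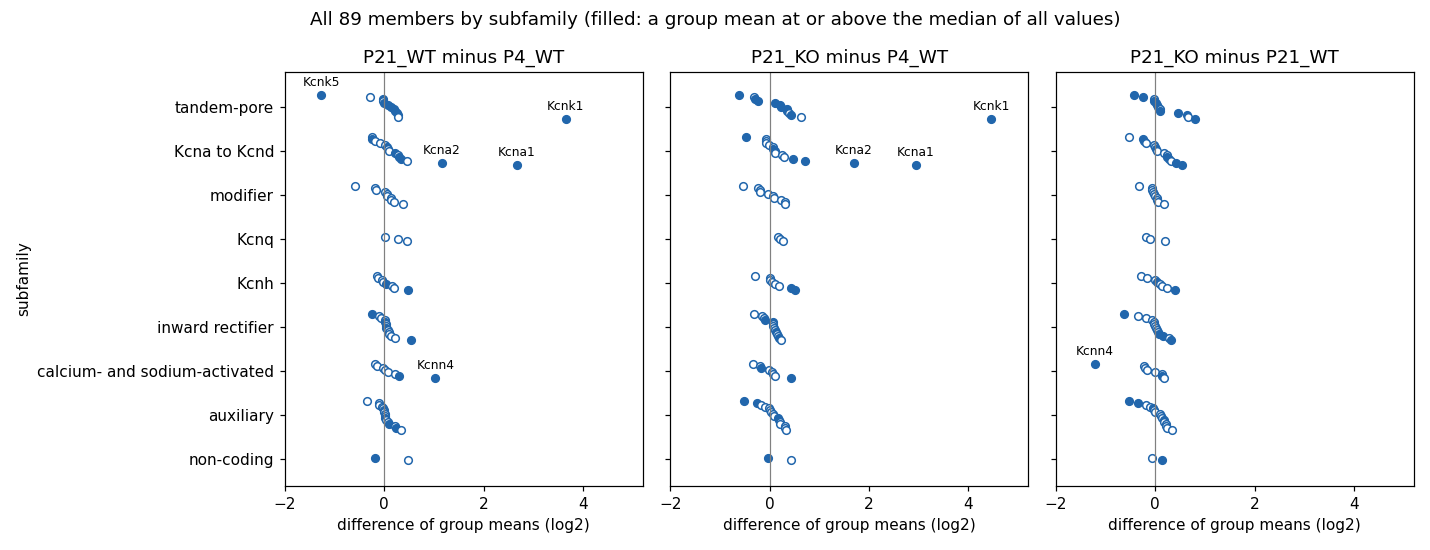
Difference of group means in log2 units (horizontal axis) for each of the 89 members by subfamily, with P21_WT minus P4_WT on the left, P21_KO minus P4_WT in the middle and P21_KO minus P21_WT on the right. Filled points have a group mean at or above the median of all values. Members differing by at least 1 log2 unit are named, and only Kcnk1, Kcna1 and Kcna2 do so in both comparisons with P4_WT.

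By age, the highest differences were those of Kcnk1, which encodes a tandem-pore leak channel subunit, and of Kcna1, which encodes a Shaker-type voltage-gated subunit. Kcna2, whose product can assemble with that of Kcna1, followed, with a difference close in size to those of Kcnn4 and, in the other direction, Kcnk5. Limma, a linear model fitted to all genes, called 2 of the 89 members at an adjusted p under 0.05, both higher in P21_WT, where 1.61% of all genes were called in either direction and 0.757% higher. The called members were Kcnk1, whose change led to the choice of the family, and Kcna1. A difference of at least 1 log2 unit was seen in 5 members (5.62%, against 5.83% of all genes): Kcnk1, Kcna1, Kcna2, Kcnn4 and Kcnk5. The difference was above 0 in 61 members (68.5%, against 50.2% of all genes). The groups did not overlap for 25 members higher in P21_WT (28.1%, against 21.4%) and 9 lower (10.1%, against 22.1%). The median difference of the members was 0.05 and that of all genes 0.00. Nothing is read from these shares, since the family was chosen on this comparison. Since whole sorted populations were measured, fewer cells of a type and less RNA per cell cannot be told apart.

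Kcnk1 read 3.48 and 3.08 in P4_WT, at the median of all values. It read 6.73 and 7.15 in P21_WT, and 7.52, 7.84, 8.06 and 7.52 in P21_KO in order of replicate. Every P21 array was thus more than 3 log2 units above both P4_WT arrays, and every P21_KO array was above both P21_WT arrays. The P4_WT mean was 3.28 ± 0.28 (SD, n = 2). The P21_WT mean was 6.94 ± 0.30 (SD, n = 2), and the mean of the 4 P21_KO arrays was 7.74 ± 0.26 (SD). The difference by age was 3.66 ± 0.26 (SE), or 12.6-fold. P21_KO differed from P4_WT by 4.46 ± 0.22 (SE), or 21.9-fold, and the P4_WT arrays are shared by both differences. The P4_WT level lies where this scale is compressed, so the folds may be understated.

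Kcna1 read 6.62 and 6.15 in P4_WT, 9.01 and 9.09 in P21_WT, and 9.46, 9.52, 9.24 and 9.10 in P21_KO. All 6 P21 arrays were above both P4_WT arrays by over 2 log2 units. The difference by age was 2.66 ± 0.22 (SE), or 6.34-fold. P21_KO exceeded P4_WT by 2.94 ± 0.19 (SE), or 7.70-fold (limma adjusted p = 0.000212).

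Kcna2 read 6.41 and 6.42 in P4_WT, 7.51 and 7.64 in P21_WT, and 8.18, 8.21, 8.37 and 7.66 in P21_KO. The groups followed the same order as for Kcna1, with the lowest P21_KO array, replicate 4, just above the higher P21_WT array. The difference by age was 1.16 ± 0.24 (SE), or 2.24-fold, and was not among the calls. P21_KO exceeded P4_WT by 1.69 ± 0.20 (SE), or 3.23-fold (limma adjusted p = 0.00255).

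P21_KO and P4_WT differ in age, labelled cell stage and genotype. Between them limma called 3 of the 89 members, where 7.73% of all genes were called and 3.05% higher. All 3 were higher in P21_KO: Kcnk1, Kcna1 and Kcna2. The P4_WT arrays are those of the age comparison on which the family was chosen, so these calls are given as a description. The same limit holds for the P21_KO against P4_WT p-values of Kcna1 and Kcna2 above. No member was called lower in either comparison with P4_WT, where 0.852% (P21_WT) and 4.68% (P21_KO) of all genes were. P21_KO was above P4_WT in 60 members (67.4%, against 52.7% of all genes), and the groups did not overlap for 18 higher members (20.2%, against 14.2%) and 7 lower (7.87%, against 15.5%). The same 3 genes were the members that differed by at least 1 log2 unit (3.37%, against 8.64%).

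**Figure D3:**
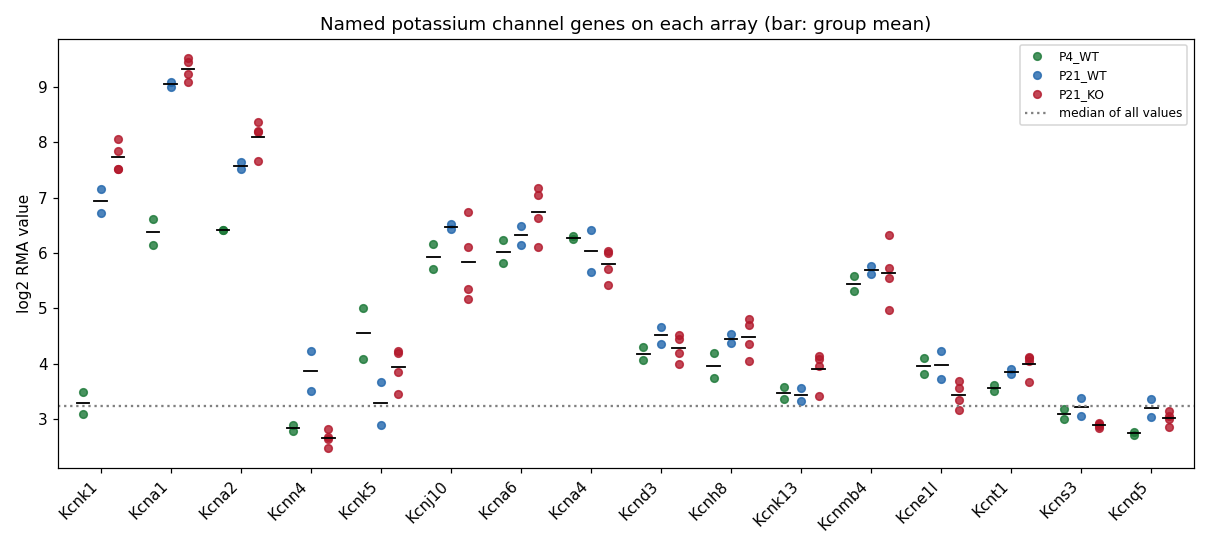
Log2 value (vertical axis) of the 16 named members on each array, by group. Points are arrays, bars are group means and the dotted line is the median of all values, 3.23. Kcnk1, Kcna1 and Kcna2 are higher on every P21 array than on both P4_WT arrays, and Kcnn4 is higher in P21_WT than on all other arrays.

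Other markers moved with these 3 genes. Of the 7 measured Schwann cell markers, 5 (Drp2, Mal, Egr2, Mbp and Pmp22) were called higher by limma in P21_WT and in P21_KO against P4_WT, with a list median of 1.26 and 1.41. No Schwann cell marker was at or below the median of all values in any group. Drp2, a dystrophin-related gene of myelinating Schwann cells, read 6.36 and 5.98 in P4_WT, 9.03 and 9.17 in P21_WT, and 9.47 to 9.72 in P21_KO. The 12 melanocyte markers had a median difference of -1.14 by age (2 called lower) and -2.67 between P21_KO and P4_WT (8 called lower). Sox10 went the other way, by 0.73 by age and by 0.81 between P21_KO and P4_WT (limma adjusted p = 0.0333). Of the 5 peripheral neuron markers, 4 (Prph, Scn10a, Scn9a and Snap25) were below 3.23 in all groups, and that list's mean was 2.68 to 3.27 on all arrays. Keratinocyte markers had a median of 1.01 by age with 0 of 9 called. The hair shaft and inner root sheath markers, at 7 of 7 lower in both comparisons, had a median of -3.97 by age (3 called lower) and -3.84 between P21_KO and P4_WT (6 called lower). The part of these cell types in the changes of Kcnk1, Kcna1 and Kcna2 was not tested.

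P21_KO was set against P21_WT to look for genes that the Raf kinases control in the upkeep of melanocyte stem cells. Limma called 0 of the 89 members and 0 of 22180 genes (0.0%). At an unadjusted p under 0.05 there were 7 members (7.87%) and 1447 genes (6.52%). The groups did not overlap for 10 members higher in P21_KO (11.2%, against 7.75% of all genes) and for 9 lower (10.1%, against 7.64%). The difference was above 0 in 52 members (58.4%, against 51.4%), and 1 member, Kcnn4, differed by at least 1 log2 unit (1.12%, against 1.37%). The median difference was 0.03 for members and 0.01 for all genes. These shares are near the background.

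Kcnk1, Kcna1 and Kcna2 were all higher on each P21_KO array than on both P21_WT arrays, without passing the test. The difference was 0.80 ± 0.22 (SE) for Kcnk1 (limma adjusted p = 0.587), with a 95% interval of 0.29 to 1.31. It was 0.28 ± 0.19 (SE) for Kcna1 (limma adjusted p = 0.883), with an interval of -0.15 to 0.71. It was 0.53 ± 0.20 (SE) for Kcna2 (limma adjusted p = 0.733), with an interval of 0.06 to 1.00. These intervals are not adjusted for the number of genes. The P21_WT arrays are also those of the age comparison. Schwann cell markers were higher in P21_KO in 6 of 7 cases, with a median of 0.15, where 51.4% of all genes were higher. Melanocyte markers were lower in 11 of 12, with a median of -1.01. Keratinocyte markers were higher in 1 of 9, with a median of -0.44. Endothelial and pericyte and smooth muscle markers were higher in 1 of 7 each, and fibroblast and skeletal muscle markers in 1 of 6 each. Immune cell markers were higher in 2 of 6 and mast cell markers in 3 of 5. Hair shaft and inner root sheath markers were higher in 4 of 7, and peripheral neuron markers in 4 of 5. The part of these cell types was not tested.

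Kcnn4 had the largest difference by genotype among the members. It encodes a calcium-activated channel of intermediate conductance, found in many non-excitable cells. It read 2.77 and 2.89 in P4_WT, 3.50 and 4.23 in P21_WT, and 2.82, 2.47, 2.68 and 2.64 in P21_KO. Only the 2 P21_WT arrays were above 3.23. P21_KO was lower by -1.21 ± 0.21 (SE), or 2.31-fold, without passing limma's test (adjusted p = 0.323). The difference ran from -1.57 to -0.85 over the alternatives, and its limma adjusted p from 0.188 to 0.866. By age Kcnn4 was higher by 1.03 ± 0.25 (SE), and by 0.67 without P21_WT replicate 2. The values of P4_WT and P21_KO are below the median of all values, and the P21_WT arrays differ from one another by more than any other pair within a group for this gene.

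Among the 13 tandem-pore members, Kcnk5, a leak channel gene whose product opens at alkaline pH, was the 1 other with a difference of over 1 log2 unit by age. It read 5.01 and 4.08 in P4_WT, 2.89 and 3.68 in P21_WT, and 4.22, 4.20, 3.85 and 3.45 in P21_KO. P21_WT was lower by -1.27 ± 0.40 (SE), and P21_KO overlapped both other groups. The difference by age was -0.80 without P4_WT replicate 1 and -0.87 without P21_WT replicate 1, and reached -1.73 without P4_WT replicate 2. P21_KO against P4_WT was at -0.62 ± 0.34 (SE), with limma adjusted p = 0.374. Kcnk13, which encodes a halothane-inhibited channel subunit, read 3.36 and 3.58 in P4_WT, 3.55 and 3.33 in P21_WT, and 4.09, 3.95, 4.14 and 3.41 in P21_KO. Its difference by genotype of 0.45 ± 0.22 (SE) did not pass (limma adjusted p = 0.816), and P21_KO replicate 4 lay within the wild-type values. The other 10 tandem-pore members differed by -0.28 to 0.29 by age and -0.42 to 0.66 by genotype. Of these Kcnk16, singled out after its values were seen, read 2.51 and 2.29, then 2.55 and 2.21, then 2.93 to 3.23 in P21_KO. Its group means were all below 3.23. It was higher by 0.66 ± 0.17 (SE) in P21_KO than in P21_WT (limma adjusted p = 0.565). Against P4_WT it was higher by 0.63 (limma adjusted p = 0.0597), which passed in 1 of the alternative fits, with a trended and robust spread.

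In the 15 genes of the Kcna to Kcnd subfamilies, which form the classical voltage-gated channels, 7 had a group mean at or above 3.23. Kcna6, a further Shaker-type gene, read 6.23 and 5.81 in P4_WT, 6.14 and 6.49 in P21_WT, and 7.18, 6.63, 7.05 and 6.11 in P21_KO. P21_KO overlapped both other groups, and exceeded P4_WT by 0.72 ± 0.30 (SE; limma adjusted p = 0.227). A second probe set of Kcna6 gave a difference of 1.14, with a limma adjusted p of 0.0363 when it stood for the gene. Kcna4, which encodes a fast-inactivating subunit, read 6.25 and 6.30 in P4_WT, 5.66 and 6.42 in P21_WT, and 5.43 to 6.04 in P21_KO. Its difference between P21_KO and P4_WT was -0.48 (limma adjusted p = 0.346), while its other, dim probe set gave 0.02. Kcnd3, an A-type channel gene, read 4.06 and 4.30 in P4_WT, 4.67 and 4.36 in P21_WT, and 4.00 to 4.52 in P21_KO, and the last group overlapped the others.

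Kcna1 lies between Kcna5 and Kcna6 on chromosome 6, and Kcna2 between Kcna3 and Kcna10 on chromosome 3, in the RefSeq table of assembly GRCm38.p6. The neighbours Kcna6, described above, and Kcna3 had signals above 3.23 in all groups, unlike Kcna5 and Kcna10. Kcna5 read 2.19 to 2.91 and Kcna10 2.47 to 3.42. Kcna3, a channel gene best known from T cells, read 4.82 and 4.87 in P4_WT, 5.00 and 4.80 in P21_WT, and 4.43 to 5.44 in P21_KO, with a difference by age of 0.05 ± 0.31 (SE). The groups overlapped for Kcna3.

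The 10 modifier genes (Kcnf, Kcng, Kcns and Kcnv), whose products do not form channels alone, were below 3.23 in all groups. Kcns3, the named member of this group, read 3.18 and 3.00 in P4_WT, 3.38 and 3.05 in P21_WT, and 2.84 to 2.92 in P21_KO. Of the 3 Kcnq genes, which encode slow voltage-gated channels, none reached 3.23 as a group mean. Kcnq5 read 2.71 and 2.77 in P4_WT, 3.03 and 3.35 in P21_WT, and 2.86 to 3.15 in P21_KO. Among the 8 Kcnh genes, the ether-a-go-go family, Kcnh8 read 4.19 and 3.73 in P4_WT, 4.36 and 4.53 in P21_WT, and 4.05 to 4.80 in P21_KO. It differed by 0.49 ± 0.28 (SE) by age and by 0.03 by genotype, and P21_KO overlapped both other groups.

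Of the 14 inward rectifier genes, Kcnj10, which encodes a glial channel that buffers potassium and is also known from melanocytes of the inner ear, read 5.71 and 6.16 in P4_WT, 6.52 and 6.43 in P21_WT, and 6.74, 6.11, 5.35 and 5.17 in P21_KO. P21_KO spread widest, with an SD of 0.72, and its replicates 3 and 4 lay below all other arrays. The difference by genotype was -0.63 ± 0.41 (SE; limma adjusted p = 0.879). It was -0.93 without P21_KO replicate 1, -0.41 without replicate 4 and -0.05 with only replicates 1 and 2 of P21_KO. On the same 4 arrays the melanocyte marker mean was 7.48, 7.10, 6.56 and 6.09, and its part was not tested. The other 13 inward rectifier genes differed by -0.25 to 0.23 by age and by -0.35 to 0.31 by genotype. Kcnj13 shares its row with another gene and was not analysed here.

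The 8 genes with Kcnma, Kcnn, Kcnt or Kcnu symbols, grouped as calcium- and sodium-activated channels by symbol alone, include Kcnn4 and Kcnt1. Kcnt1, a sodium-activated channel gene, read 3.62 and 3.51 in P4_WT, 3.82 and 3.90 in P21_WT, and 3.67, 4.12, 4.06 and 4.10 in P21_KO. Every P21 array was above both P4_WT arrays, P21_KO replicate 1 only narrowly, and the difference between P21_KO and P4_WT was 0.42 ± 0.17 (SE; limma adjusted p = 0.20). The other 6, Kcnma1 of the large-conductance channel among them, differed by -0.18 to 0.21 by age.

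Of the 16 auxiliary subunit genes, 4 had a group mean at or above 3.23. Kcnmb4, a beta subunit of the large-conductance channel, read 5.31 and 5.58 in P4_WT, 5.62 and 5.76 in P21_WT, and 5.54, 4.98, 6.33 and 5.73 in P21_KO. Both other groups lay within the P21_KO range. Kcne1l, a Kcne family subunit gene, read 3.81 and 4.09 in P4_WT, 3.73 and 4.22 in P21_WT, and 3.35, 3.69, 3.15 and 3.56 in P21_KO. P21_KO was below all wild-type arrays, by -0.53 ± 0.21 (SE) against P21_WT, and missed the threshold (limma adjusted p = 0.736). The other 14 auxiliary genes differed by -0.34 to 0.33 by age. Of the non-coding members, Kcnq1ot1 read 3.94 to 4.44 on all arrays with overlapping groups, and Kcnd3os 2.65 to 3.31. Whether the array tells such transcripts from the genes they overlap is not given in the sources used here.

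**Figure D4:**
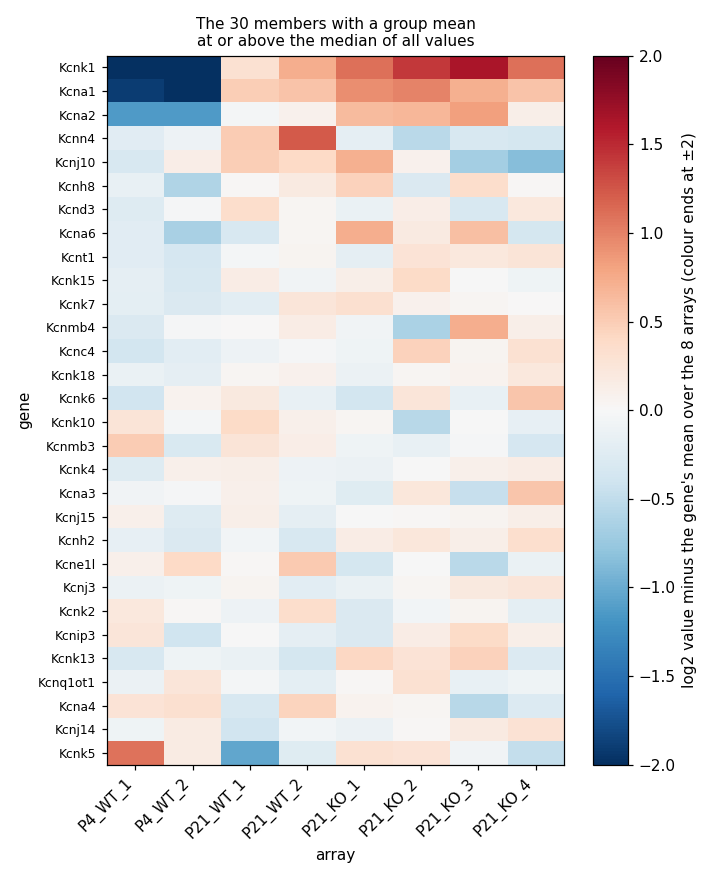
Log2 value minus the gene's mean over all 8 arrays (colour, ending at ±2) for the 30 members with a group mean at or above the median of all values. Rows are genes in order of their difference by age, and columns are arrays. The contrast between P4_WT and P21 arrays is strong in Kcnk1, Kcna1 and Kcna2 and weak in most other rows.

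Other genes of potassium handling were counted beside the channels. Of 6 measured cation-chloride cotransporter genes, 1 was called higher by age, where 0.757% of all genes were. Between P21_KO and P4_WT 1 was called higher, where 3.05% of all genes were. In both cases it was Slc12a2, which brings sodium, potassium and chloride into the cell together. Slc12a2 read 6.13 and 6.01 in P4_WT, 7.54 and 7.47 in P21_WT, and 7.51 to 7.68 in P21_KO. The groups of different age were far apart and those of different genotype overlapped. It rose by 1.43 ± 0.15 (SE; limma adjusted p = 0.00441) by age, or 2.70-fold, and by 1.50 ± 0.13 (SE; limma adjusted p = 0.000667) between P21_KO and P4_WT. With the arrays of only these ages' wild-type groups the age call was lost (limma adjusted p = 0.0681). Slc12a4, a potassium-chloride cotransporter gene, was higher by 1.06 in P21_KO than in P4_WT and did not pass (limma adjusted p = 0.0541). It did pass without P21_KO replicate 3 (0.0281) and with dim genes left out (0.0361). It also passed with the arrays rescaled by cyclic loess (0.0327) or quantile normalization (0.0262). In 17 of the 21 alternatives it did not pass.

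Of 9 measured genes of the sodium-potassium pump, which builds the gradients the channels use, 0 were called by age, where 1.61% of all genes were. In P21_KO against P4_WT 3 were called higher, where 3.05% of all genes were. Fxyd1, a pump regulator gene, read 8.30 and 7.62 in P4_WT, 8.75 and 8.87 in P21_WT, and 9.38 to 9.70 in P21_KO, and rose by 1.62 ± 0.20 (SE; limma adjusted p = 0.00313). Atp1b2, the gene of a glial beta subunit, rose by 1.68 ± 0.33 (SE; limma adjusted p = 0.0198), and without P4_WT replicate 2 its adjusted p was 0.136. Fxyd6 rose by 1.49 ± 0.33 (SE; limma adjusted p = 0.0298). Its call was lost without either P4_WT array (0.0717 and 0.183) and without P21_KO replicate 1, 3 or 4 (0.0597 to 0.0731). No pump gene was called by genotype, where Fxyd1 differed by 0.77 ± 0.20 (SE; limma adjusted p = 0.571), Atp1b1 by 0.75 and Fxyd5 by -0.60. By age Fxyd6 (1.12), Atp1b2 (1.10) and Fxyd2 (0.94) were higher without passing. Fxyd6 was at 0.53 without P21_WT replicate 2 and at 1.71 without P21_WT replicate 1. Fxyd2 read 3.50 and 6.34 in P21_WT, and without replicate 2 its difference was -0.48.

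Of 16 measured genes of other channel subunits and partners, 0 were called by age, where 1.61% of all genes were. In P21_KO against P4_WT 1 was called higher, where 3.05% of all genes were. Amigo1, the gene of an adhesion protein that accompanies voltage-gated channels, was at 4.09 and 4.25 in P4_WT, 4.87 and 5.04 in P21_WT, and 4.73 to 5.34 in P21_KO. It rose by 0.87 ± 0.19 (SE; limma adjusted p = 0.0275). The call was lost without either P4_WT array (0.156 and 0.0914) and without P21_KO replicate 1, 3 or 4 (0.0515 to 0.056). Tmem38a, the gene of an intracellular cation channel, was higher by 0.79 between P21_KO and P4_WT (limma adjusted p = 0.161), and passed without P4_WT replicate 1 (0.025). By genotype, the largest differences among the partners whose higher group mean reached 3.23 were Tmem175 (-0.54), Lrrc52 (0.51) and Tmem38b (0.41), none past the threshold. The median difference by age was 0.21 for the cotransporters, 0.05 for the pump and 0.10 for the partners.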

How the data were processed

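RNA of sorted cells was amplified and measured on 8 gene arrays. The deposited values are log2 signals that, per the submitters' processing notes, were produced by the authors with RMA in Expression Console, an Affymetrix program. No version or genome build was found in the sources used here. RMA corrects background, gives arrays a common distribution and combines a row's probes, which compresses differences between low signals. Of 41345 rows, 23521 had 1 gene symbol, and the row with the highest mean stood for each of 22180 genes. A total of 4 rows that name a potassium channel gene beside another symbol were left out, and 7 members had several rows. The left-out rows include those of Kcnk3, a tandem-pore gene, and of Kcnj13, which are therefore not members.

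Limma 3.58.1 in R 4.3.3 (lmFit, eBayes) fitted 1 mean per group over the 8 arrays, with 5 residual degrees of freedom. Two-sided p-values were adjusted by Benjamini-Hochberg over all genes, and calls were made at an adjusted p under 0.05. No filter on dim genes was used, and the number of arrays limits the precision. The fit was tested on simulated data. The members, gene lists and rules were chosen with earlier results of these data known. The text names Kcnk1, the 8 members with the largest difference in each comparison whose higher group mean reached the median of all values, the member with the highest mean signal in each subfamily, and up to 3 genes of each other potassium list under the same condition. Alternatives changed the spread model, the scaling, the filter, the probe set rule, the blocking and the arrays used.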

Additional observations from a re-analysis of the deposited data

Results flagged for a closer look

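Among the 16 named members, 1 had an array far from the others of its group of 4, at a limit that chance passes in about 1 in 20 groups. This was Kcnt1 in P21_KO replicate 1, which read 3.67 against 4.06 to 4.12 on the other P21_KO arrays.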

How the results depend on the processing

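The number of members called was 2 or 3 by age, 0 by genotype and 3 or 4 between P21_KO and P4_WT over all 21 alternatives, against 2, 0 and 3 in the analysis as reported. Leaving out single arrays gave 2 to 3, 0, and 3. Kcna2 was called by age in 7 of the 21 alternatives. Some alternatives coincide: for P21_KO against P4_WT, leaving out either P21_WT array gave the same fit as the arrays of those groups alone. With a replicate block, on the 6 arrays whose number occurs in several groups, the counts were 2, 0 and 3, and over all genes 45, 0 and 463 against 357, 0 and 1715. On those arrays without the block, a fit added after the data were seen, the members called were 3, 0 and 3, and over all genes 98 were higher and 125 lower by age, 0 were called by genotype, and 352 were higher and 372 lower between P21_KO and P4_WT. In that fit Atp1b2, Fxyd6 and Amigo1 had already lost their calls between P21_KO and P4_WT (adjusted p 0.0716 to 0.16), and with the block Slc12a2 by age (0.0667) and Fxyd1 between P21_KO and P4_WT (0.0532) lost theirs as well. The replicate numbers are shared by name only, with correlations of deviations between -0.0372 and 0.00573 for arrays of one number, and nothing states that they pair the arrays. With the arrays of one label number averaged, the members called were 3, 0 and 3. In that fit 445 genes were called higher and 532 lower between P21_KO and P4_WT, and Fxyd6 lost its call (limma adjusted p = 0.0975). Over all genes and alternatives, the calls by age lay between 45 and 423 and those between P21_KO and P4_WT between 463 and 1838. By genotype there were up to 15, without P21_WT replicate 2. Of the differences of single genes, 2 turned sign: Kcna4 between P21_KO and P4_WT was 0.017 with the first listed probe set, and Fxyd2 by age ran from -0.48 to 2.36 when single arrays were left out. Low signal limits the 59 members below the median of all values.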

Other observations

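The rule for named genes also picked differences that are not described above. By age these were Tmem38a (0.78), Amigo1 (0.79), Slc12a4 (0.68), Tmem175 (0.51) and Slc12a3 (0.16). By genotype these were Slc12a7 (-0.45), Slc12a4 (0.37) and Slc12a3 (-0.14), and between P21_KO and P4_WT Tmem38b (0.62) and Slc12a7 (-0.41). None passed limma's test, and the lowest adjusted p among them was 0.145, for Amigo1.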
